A study of Caenorhabditis elegans with 6 samples.

Results

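Long intergenic noncoding RNA (lincRNA) genes of Caenorhabditis elegans were described by the small RNAs that co-precipitated with WAGO-4. The members are all genes whose biotype entry in the count tables is lincRNA, 169 of the 45510 genes listed, with the transcripts of a gene summed. A lincRNA is a long transcript without a recognised protein product that lies between protein-coding genes. WAGO-4 is a cytoplasmic Argonaute of the germline. Argonautes of its kind carry secondary small interfering RNAs, made by RNA-dependent RNA polymerases on the targeted transcript and therefore antisense to it. Reads antisense to a lincRNA gene are thus the form that such small RNAs take, and sense reads have the orientation of the transcript itself. No particular function is stated below for single lincRNA genes.

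All animals carried 3xFLAG::GFP::WAGO-4, were labelled young adults at 20 °C, and were precipitated with anti-FLAG M2 antibody. There was 1 library per group: lin-15b(RNAi) animals, untreated animals (the first untreated library), animals on HT115 (the bacterial strain commonly used to feed double-stranded RNA), animals on oma-1 double-stranded RNA (dsRNA; the P0 generation), and descendants of these in the F1 and F3 generations. The labels state neither how the tag is expressed nor how lin-15b RNAi was given, and no input or untagged library was analysed here, so a level says what was in the precipitate, without a measure of enrichment. The growth notes were alike for lin-15b RNAi and the first untreated library, alike for HT115 and P0 (embryos held at several temperatures), and different again for F1 (larvae without food) and F3 (no food, and ultraviolet light on embryos). Notes on embryos, larvae and several temperatures do not match the label of young adults at 20 °C, and whether they describe these animals is not known. These notes and the groups cannot be told apart.

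The libraries held 8667735 to 11309227 gene-assigned reads. Strands were kept apart in 5 libraries, in which 55.64% to 77.81% of reads were antisense. The first untreated library had 1 count column, read here as both strands summed. All 5 germline markers listed (pgl-1, glh-1, gld-1, mex-5 and pos-1) were at 25 antisense CPM or more in the 5 stranded libraries, and 0 of 3 intestine, 0 of 3 muscle and 0 of 3 sperm markers were. Of 3 neuron markers, 1 reached that level in each. With 1 library per group there was no replicate check, no test and no p-value. Intervals are at 95% and cover counting error only: no molecular identifiers are described, so PCR copies of 1 molecule may count more than once. CPM is the count per 1000000 antisense reads of a library or, where both strands are named, per 1000000 reads of both strands.

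Most lincRNA genes had few or no small RNAs in the precipitates, and 23 of 169 reached 25 CPM in at least 1 library. Of the 169, 154 had a read in some library and 15 had none. In the 5 stranded libraries 136 had at least 1 antisense read. On HT115, 14 lincRNA genes (8.28%) were at 25 antisense CPM or more, beside 5516 protein-coding genes (26.9%) and 5696 of all genes (12.5%). Of genes annotated as ncRNA, 131 (1.65%) were at that level on HT115. The numbers of lincRNA genes were 16 in P0, 15 in F1, 16 in F3 and 15 after lin-15b RNAi. The 146 genes that never reached the minimum together held 1.24% of lincRNA antisense reads after lin-15b RNAi and 2.23% to 2.34% in the other stranded libraries. The highest of them was linc-4, with 23.9 antisense CPM in F3 and 15.0 to 21.5 elsewhere. On HT115, 54 lincRNA genes had 0 antisense reads. For a count of 0 the upper 95% bound, taken on 1 side only, is about 3 reads.

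Together the lincRNA genes took less than 1% of each precipitate. Their share of antisense reads was 0.735% after lin-15b RNAi (Wilson interval 0.729 to 0.742). It was 0.705% on HT115 (0.699 to 0.711) and 0.657% in P0 (0.651 to 0.664). The F1 share was 0.617% (0.610 to 0.623) and the F3 share 0.610% (0.604 to 0.616). The share thus stood lowest in the descendants, by a margin wider than the counting intervals. For scale, lines annotated as transposon took 1.55% of antisense reads on HT115 and those annotated as ncRNA took 1.35%. Over both strands lincRNA genes held 0.603% of reads after lin-15b RNAi and 0.710% in the first untreated library.

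A few loci held most of these reads. The genes linc-29, linc-22 and linc-7 carried 68.4% of lincRNA antisense reads on HT115, 67.0% in P0, 73.7% in F1, 74.7% in F3 and 82.9% after lin-15b RNAi. Of the HT115 lincRNA antisense reads, 49.5% fell on chromosome X, 25.5% on IV, 14.5% on II, 5.08% on I, 3.69% on III and 1.70% on V. Chromosome X had 4 of the 23 genes that reached the minimum and 33 of the 169 members, so its large share came from few loci. Chromosome II had 6 of the 23 and 34 of the 169, and IV had linc-29 alone among 26.

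Coordinates below are those that the Ensembl release 115 annotation of WBcel235 gives for the same gene IDs. The deposited tables name no genome build. In that annotation all 169 members are lincRNA genes, and 70 overlap another annotated gene by position.

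The gene linc-29 (WBGene00189951, IV:6354024-6357243, plus strand, 3 exons) overlapped no other annotated gene and had 1772 antisense CPM on HT115. It stood at 1944 CPM in P0, 1698 in F1, 1777 in F3 and 4624 after lin-15b RNAi. The level after lin-15b RNAi was the only one of these 5 stranded libraries far from the others. It was not far from the first untreated library, at 1.22-fold over both strands (1.20 to 1.24). The gene linc-22 (WBGene00219699, X:9069138-9073735, plus strand, 5 exons) had 1614 antisense CPM on HT115, 1331 in P0, 1264 in F1, 1481 in F3 and 378 after lin-15b RNAi. Its exons contain those of the small nucleolar RNA gene F47E1.19 on the same strand, which had 33 antisense reads on HT115 against 11930 for linc-22. The gene linc-7 (WBGene00219609, X:16002599-16003728, plus strand, 1 exon) lies in C09G1.4, a protein-coding gene on the other strand, with 0 shared exon bases. It had 1438 antisense CPM on HT115, 1129 in P0, 1580 in F1, 1302 in F3 and 1095 after lin-15b RNAi, so its highest level was less than 2-fold above its lowest. The gene linc-6 (WBGene00219700, X:1982710-1982883, minus strand, 1 exon) was similarly even, with 397 CPM on HT115, 363 in P0, 339 in F1, 366 in F3 and 344 after lin-15b RNAi.

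Per length of exon the order was different. On HT115 linc-29 had 2818 antisense RPKM (reads per 1000 exon bases and per 1000000 antisense reads), linc-6 had 2280, linc-7 had 1272, linc-17 had 617, linc-16 had 435, linc-63 had 428 and linc-22 had 396. The exons of linc-6 span 174 bases and those of linc-22 span 4071, so linc-22 ranked second by reads and seventh by RPKM. Between linc-16 and linc-63 the antisense RPKM on HT115 differed by little, with 1826 and 1686 reads behind them. Counts of linc-6 include 40 exon bases shared on the same strand with the ncRNA gene F52D2.14, which had 95 antisense reads on HT115.

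Reads on the 23 lincRNA genes that reached the minimum were nearly all antisense, with 4 exceptions. On HT115, 97.55% of reads on lincRNA genes were antisense (Wilson interval 97.42 to 97.68), against 83.23% on protein-coding lines, 62.34% on ncRNA lines and 96.06% on transposon lines. The lincRNA share was 97.12% in P0, 96.42% in F1 and 97.15% in F3. Protein-coding lines stood at 75.59% in P0, 62.57% in F1 and 78.18% in F3. After lin-15b RNAi the lincRNA share was 85.24%, or 98.46% when linc-76 is left out. Apart from linc-30, linc-40, linc-76 and linc-109, the other 19 genes had at least 88.52% antisense reads in each of the 5 libraries. In the stranded libraries the minimum counts antisense reads, which favours genes with reads on that strand. The class shares mostly describe the abundant genes. The 146 genes under the minimum held 2.23% of lincRNA antisense reads on HT115, or 1161 reads, and their strand was not summarised apart. All lincRNA genes together had 1307 sense reads on HT115, so the class share does not give the strand of these 146.

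The exceptions were mixed or mostly sense. The gene linc-30 (WBGene00219749, I:2046539-2048913, plus strand) had between 48.66% antisense reads (F1) and 52.27% (lin-15b RNAi), an even division in all 5. The gene linc-109 (WBGene00219615, III:10732273-10736681, minus strand) had 53.49% to 58.45% in the HT115 and oma-1 libraries, and 9 antisense and 18 sense reads after lin-15b RNAi. The gene linc-40 (WBGene00219770, III:1325891-1327724, plus strand) had 81.91% after lin-15b RNAi, with 231 antisense and 51 sense reads, but 34.54% on HT115, with 67 and 127. It shares 277 exon bases on the same strand with the protein-coding gene Y82E9BL.18, which had 6 antisense and 0 sense reads on HT115.

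Reads on linc-76 (WBGene00219619, III:11126863-11129355, minus strand, 2 exons) were mostly sense where strands were kept apart, and the gene was abundant after lin-15b RNAi and in the first untreated library. It had 7645 sense and 8 antisense reads after lin-15b RNAi. On HT115 it had 107 sense and 13 antisense reads, and the P0, F1 and F3 libraries had 77 to 117 sense and 17 to 21 antisense reads. Over both strands linc-76 had 811 CPM after lin-15b RNAi and 1165 CPM in the first untreated library. The HT115 and oma-1 libraries had 10.1 to 15.6 CPM. The gene shares 144 exon bases on the same strand with Y48A6C.8, which had 6 sense reads after lin-15b RNAi, and 40 with Y48A6C.4 on the other strand, which had 363 antisense reads in that library and 879 on HT115.

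**Figure D1:**
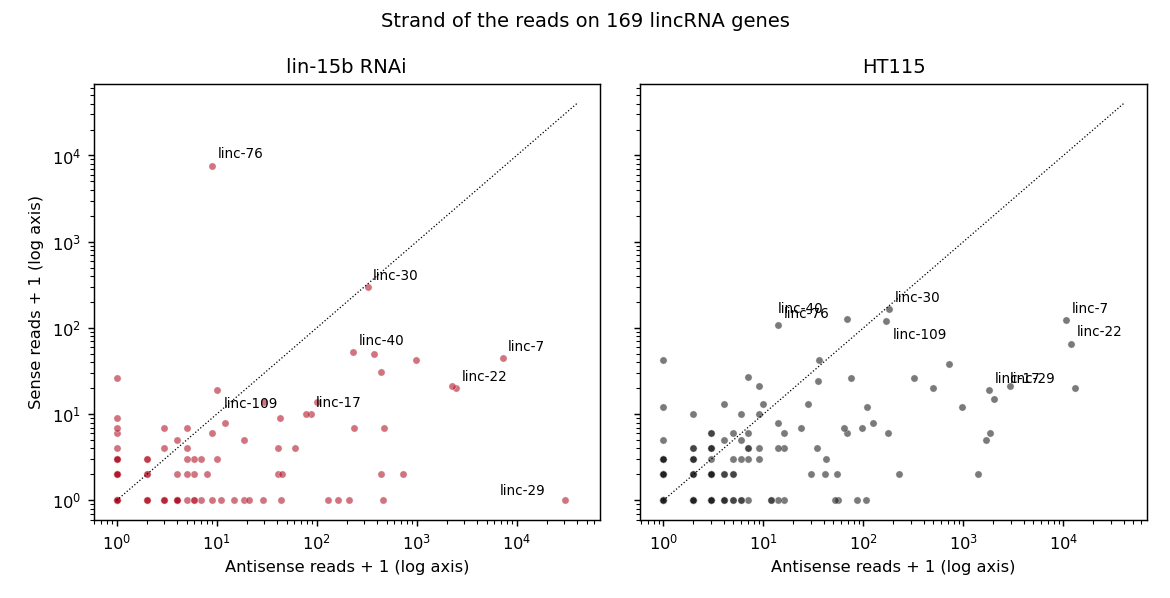
Sense reads (vertical) against antisense reads (horizontal) of 169 lincRNA genes, each plus 1 on log axes, after lin-15b RNAi (left) and on HT115 (right); the dotted line marks equal numbers. The gene linc-76 stands far above the line at 7645 sense reads after lin-15b RNAi and at 107 on HT115.

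In the animals exposed to oma-1 dsRNA the lincRNA genes, like measured genes at large, were close to HT115. The oma-1 design asks how WAGO-4 small RNAs behave in exposed animals and in their descendants. A gene was measured in a comparison when it reached 25 CPM in the higher library, and called when it was at least 2-fold apart. A gene that passes the minimum only through the library where it is high is more likely to be called. In P0, 16 lincRNA genes were measured and 0 were called in either direction. Of 5866 measured genes 0.563% were called, 0.528% higher and 0.0341% lower, so that a count of 0 among 16 is near the background. The median log2 ratio of the 16 was -0.04 and that of all measured genes was 0.02. The highest were linc-20 at 1.50-fold (1.22 to 1.84), linc-169 at 1.39-fold (1.23 to 1.57) and linc-31 at 1.38-fold (1.18 to 1.61). The lowest were linc-7 at 0.786 times HT115 (0.762 to 0.810) and linc-22 at 0.825 times (0.802 to 0.849). The targeted gene oma-1 itself, which encodes a zinc-finger protein of maturing oocytes, had 1440 antisense CPM in P0 and 96.5 on HT115.

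In F1, 4 lincRNA genes were at least 2-fold lower than on HT115 and 0 were higher. Of the 16 measured, that is 25%, where 1.93% of 5815 measured genes were called, 0.430% lower and 1.50% higher. The median log2 ratio was -0.04 for the 16 and -0.03 for all measured genes, so the bulk of the class stood where other genes stood. The genes called were linc-17 (5.07-fold lower, 4.45 to 5.79), linc-14 (4.25-fold lower, 3.02 to 6.14), linc-24 (2.85-fold lower, 2.54 to 3.21) and linc-8 (2.07-fold lower, 1.90 to 2.26). The log2 ratio of linc-8, -1.05, was -0.98 with median-of-ratios scaling and -0.99 with TMM factors, under the 2-fold call. Of all 5815 genes linc-17 had the lowest ratio. The gene linc-14 was measured only through its HT115 level, in F1 and in F3. Next among the lincRNA genes was linc-16 at 0.619 times HT115 (0.569 to 0.672). The highest was linc-169, at 1.29-fold (1.14 to 1.47).

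In F3, 4 lincRNA genes were at least 2-fold lower than on HT115 and 1 was at least 2-fold higher. Of the 17 measured, 23.5% were lower and 5.88% higher, where 0.916% of 5788 measured genes were called, 0.587% lower and 0.328% higher. The median log2 ratio was -0.12 for the 17 and -0.01 for all measured genes. The lower genes were linc-17 (7.54-fold, 6.59 to 8.67), linc-14 (3.32-fold, 2.52 to 4.43), linc-16 (3.24-fold, 2.94 to 3.56) and linc-24 (2.49-fold, 2.25 to 2.75). The higher gene was linc-59 (5.84-fold, 4.16 to 8.39), which was measured only through its F3 level. Among the 5788 genes linc-17 had the lowest ratio. The gene linc-8 stood at 0.540 times HT115 (0.501 to 0.582), under the 2-fold call. The comparisons of P0, F1 and F3 all use the same HT115 library and are not independent of each other.

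**Figure D2:**
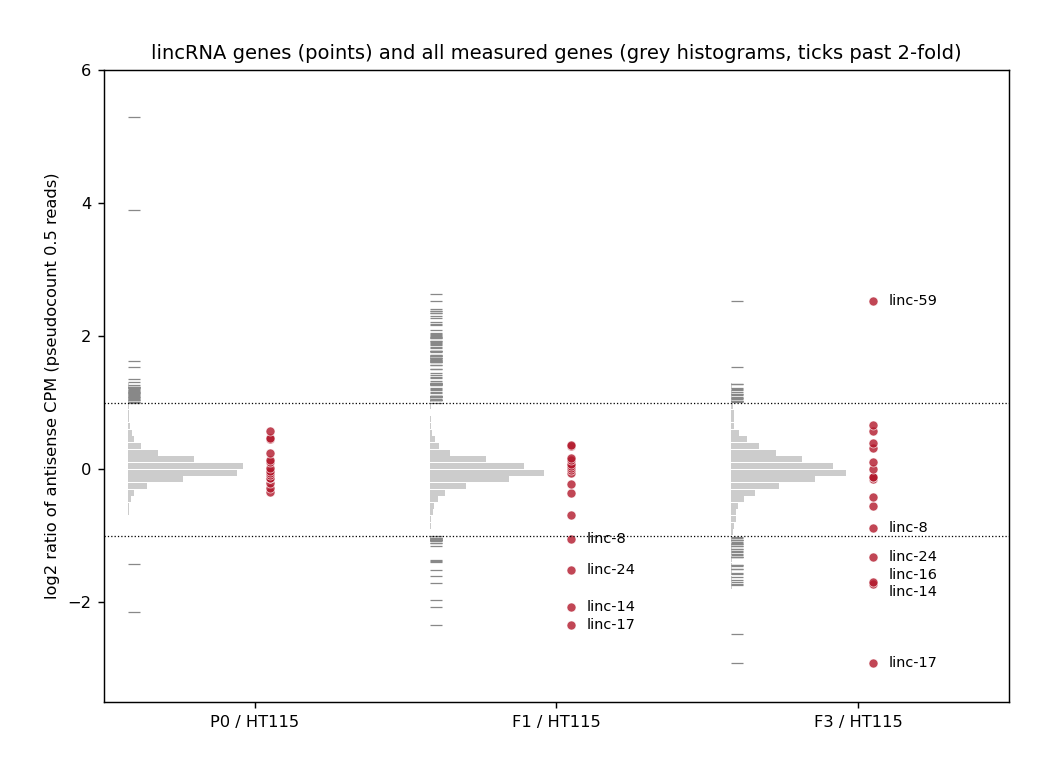
Log2 ratio of antisense CPM to HT115 (vertical axis) in P0, F1 and F3; red points are measured lincRNA genes, grey histograms are all measured genes scaled to the same height, grey ticks are genes at least 2-fold apart and dotted lines mark 2-fold. In P0 the lincRNA points lie between -0.35 and 0.58, and in F3 they lie between -2.91 for linc-17 and 2.53 for linc-59.

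The genes linc-17, linc-14, linc-24, linc-16 and linc-8 are grouped here because their values were seen to be lower in the descendants. The gene linc-17 (WBGene00219755, II:3596226-3596812, plus strand, 2 exons, no overlapping gene) gave 1816 antisense reads on HT115 and 1279 in P0, or 246 CPM (234 to 257, exact Poisson) and 212 CPM (201 to 224). The F1 library gave 264 such reads and the F3 library 238, or 48.4 CPM (42.8 to 54.7) and 32.6 CPM (28.6 to 37.0). After lin-15b RNAi the level was 13 antisense CPM (10.4 to 16.1). HT115 and P0 were thus high and F1, F3 and lin-15b RNAi low. The intervals of the high and the low libraries did not overlap, but linc-17 was picked for its lower values in the descendants. These intervals cover counting error within single libraries and give no measure of a difference between conditions.

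The gene linc-16 (WBGene00219728, II:1820242-1820946, minus strand, 3 exons) stood at 247 antisense CPM on HT115 (236 to 259) and at 226 in P0 (215 to 239). Its F1 level was 153 CPM (143 to 164) and its F3 level 76.4 CPM (70.1 to 83.0). After lin-15b RNAi it had 9.08 (6.93 to 11.7). From F1 to the later F3 library linc-16 stood at 0.499 times its F1 level (0.448 to 0.557), linc-17 at 0.672 times (0.562 to 0.804) and linc-24 at 1.15 times (1.00 to 1.31). The exons of linc-16 share 496 bases on the same strand with fbxa-3, a gene of the F-box A family, and 66 bases on the other strand with fbxc-19. Antisense reads of fbxa-3 numbered 28 on HT115 and 37 in P0, then 21 in F1 and 24 in F3, and sense reads of fbxc-19 numbered 10 to 19 in these 4 libraries, so neither held reads on the scale of linc-16. Division of reads between linc-16 and fbxa-3 in the counting was not tested.

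The gene linc-24 (WBGene00219771, III:1370495-1371568, plus strand, 3 exons) had 190 antisense CPM on HT115 and 187 in P0, then 66.6 in F1 and 76.4 in F3, and 31.6 after lin-15b RNAi. The gene linc-8 (WBGene00219707, II:2501838-2503802, minus strand, 5 exons) had 273 antisense CPM on HT115, 257 in P0, 132 in F1, 147 in F3 and 35.9 after lin-15b RNAi. The gene linc-14 (WBGene00195060, V:17539172-17539475, minus strand, 2 exons) is the least abundant of these, with 225 antisense reads on HT115 (30.4 CPM), 186 in P0 (30.8), 39 in F1 (7.16), 67 in F3 (9.17) and 14 after lin-15b RNAi (2.12). In P0 the 5 genes stood between 0.863 times HT115 (linc-17) and 1.01 times (linc-14). Summed over the 5 genes, the antisense level came to 986 CPM on HT115, 913 in P0, 407 in F1, 342 in F3 and 91.7 after lin-15b RNAi. This sum restates the choice of the genes. The other lincRNA genes summed to 6065 CPM on HT115, 5658 in P0, 5761 in F1, 5759 in F3 and 7260 after lin-15b RNAi.

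The same 5 genes were also low in the first untreated library, so HT115 and P0 were the high libraries among the 6. On the scale of both strands, linc-17 had 10.1 CPM after lin-15b RNAi and 14.4 in the first untreated library. It had 195 on HT115 and 151 in P0, then 27.9 in F1 and 24.3 in F3. The sum over the 5 genes was 66.1 CPM after lin-15b RNAi, 115 in the first untreated library, 780 on HT115 and 645 in P0, then 231 in F1 and 252 in F3. The libraries with high levels are those that share a growth note on embryos held at several temperatures, and the part of that note in the levels cannot be told apart from other differences between the libraries. Against the first untreated library in place of HT115, over both strands, the log2 ratio in F3 was 0.75 for linc-17, 2.03 for linc-16, 1.50 for linc-14 and 0.57 for linc-24. In F1 it was 0.95 for linc-17, 0.78 for linc-14, 0.67 for linc-8 and -0.01 for linc-24.

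The gene linc-59 (WBGene00219594, V:16319028-16320419, minus strand, 6 exons) was higher in later generations. Its antisense reads numbered 40 on HT115 and 40 in P0, then 84 in F1 and 231 in F3. In CPM these were 5.41 for HT115 (3.87 to 7.37), 6.63 for P0 (4.74 to 9.03), 15.4 for F1 (12.3 to 19.1) and 31.6 for F3 (27.7 to 36.0). Between F1 and F3 the fold was 2.05 (1.59 to 2.66). After lin-15b RNAi it had 43 antisense reads (6.51 CPM), and over both strands the first untreated library had 10.7 CPM (8.87 to 12.8), above HT115 at 4.37 (3.14 to 5.92) and below F3 at 23.2 (20.3 to 26.4). All 503 exon bases of linc-59 lie on the same strand within exons of the pseudogene WBGene00219477, and reads of the pseudogene and of linc-59 cannot be told apart.

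**Figure D3:**
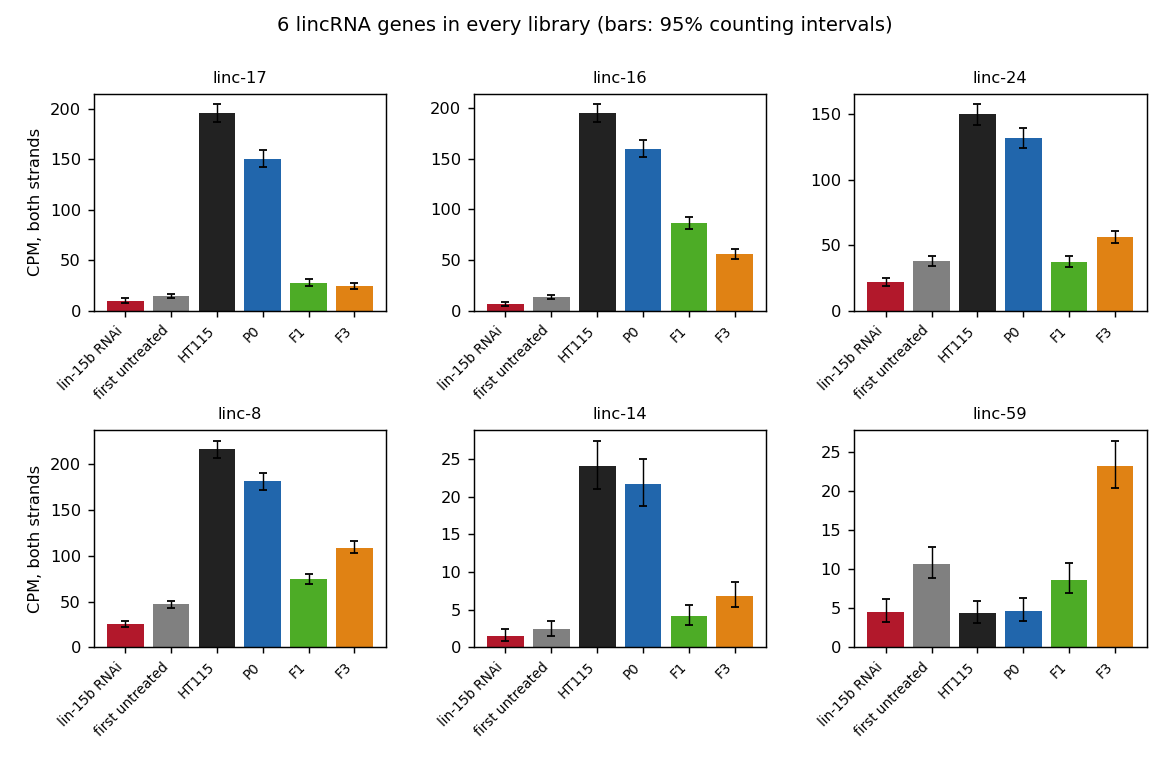
Level of 6 lincRNA genes in every library, in CPM of both strands (bars start at 0; error bars are exact Poisson 95% intervals; each panel has its own scale). In the first 5 panels HT115 and P0 are the highest bars, at 195 and 151 CPM for linc-17. In the panel of linc-59 F3 is the highest, at 23.2 CPM. The totals include sense reads, and F1 had the lowest antisense share of the stranded libraries (55.64%).

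The genes linc-16, linc-8, linc-12, linc-11 and linc-17 lie between bases 1820242 and 3596812 of chromosome II, where the annotation places 9 of the 34 lincRNA genes of that chromosome, and 5 of these 9 reached the minimum. The bounds of this stretch are the ends of linc-16 and linc-17, both called lower in F3, and linc-8 was grouped above for its lower values. The stretch was thus drawn around such genes, and a grouping by position was not tested. In F3 all of those 5 stood below HT115, as did 10 of the 17 lincRNA genes measured in F3, but in F1 linc-11 and linc-12 did not. Antisense CPM of linc-11 was 132 on HT115 and 127 in P0, then 134 in F1 and 90.4 in F3, and that of linc-12 was 13 on HT115 and 9.95 in P0, then 18 in F1 and 5.20 in F3. On the same strand 703 bases downstream of linc-17 lies linc-68, with 9.20 antisense CPM on HT115 and 5.8 in P0, then 10.1 in F1 and 1.51 in F3. Its F1 level was not below HT115, as that of its neighbour was, but its F3 level was below HT115 for both genes.

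Other adjacent pairs also differed in level. The gene linc-45 (WBGene00219661, III:3151809-3152607, plus strand, 3 exons) begins 456 bases after linc-19 on the same strand. It had 14.2 antisense CPM on HT115 and 13.9 in P0, then 13.2 in F1 and 14.9 in F3, and 24.5 after lin-15b RNAi. In the same 5 libraries linc-19 had between 4.24 (lin-15b RNAi) and 10.5 (F3). On chromosome IV, linc-41 and linc-21 lie 320 bases apart on the same strand. On HT115 linc-41 had 11.5 antisense CPM and linc-21 had 7.30, and in F3 linc-41 had 7.94 and linc-21 had 10.9. None of these 4 genes reached 25 antisense CPM in the 5 stranded libraries.

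After lin-15b RNAi, 4 lincRNA genes were at least 2-fold lower than in the first untreated library and 0 were higher, over both strands. The gene lin-15B encodes a chromatin regulator of the synthetic multivulva class, and this comparison asks what its depletion does to WAGO-4 small RNAs. The targeted gene lin-15B had 1250.3 CPM over both strands after lin-15b RNAi and 188 in the first untreated library. Of the 18 lincRNA genes measured, 22.2% were called lower, where 8.11% of 5818 measured genes were called, 1.80% lower and 6.31% higher. The median log2 ratio was -0.41 for the 18, with 6 above 0 and 12 below, and 0.04 for all measured genes.

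The 4 lower genes differ in abundance, and linc-45 and linc-12 were measured only through their level in the first untreated library. The gene linc-45 had 162 reads after lin-15b RNAi and 885 in the first untreated library, or 17.2 CPM after lin-15b RNAi and 78.3 CPM in the first untreated library, 4.56-fold lower (3.85 to 5.43). The gene linc-22 had 267 CPM after lin-15b RNAi and 898 in the first untreated library, 3.37-fold lower (3.22 to 3.52). The gene linc-11 (WBGene00219758, II:3373169-3374185, minus strand) had 77.3 CPM after lin-15b RNAi and 199 in the first untreated library, 2.58-fold lower (2.37 to 2.81). The gene linc-12 (WBGene00219687, II:2681408-2681658, minus strand) had 13.8 CPM after lin-15b RNAi and 29.4 in the first untreated library, 2.13-fold lower (1.74 to 2.63). All 4 had at least 99.25% antisense reads after lin-15b RNAi. On the higher side linc-20 stood at 1.50-fold (1.30 to 1.72), linc-9 at 1.49-fold (1.36 to 1.63) and linc-29 at 1.22-fold (1.20 to 1.24), while linc-6 stood at 0.995 times (0.941 to 1.05).

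Between the libraries without RNAi more genes were called than in the comparisons above, among lincRNA genes and among all measured genes alike. Over both strands, HT115 had 6 lincRNA genes at least 2-fold higher and 4 lower than the first untreated library, of 21 measured. That is 28.6% and 19.0%, where 28.3% of 6170 measured genes were called, 18.5% higher and 9.77% lower. The median log2 ratio was -0.05 for the 21 and 0.31 for all measured genes. The higher genes were linc-16 (14.2-fold, 12.1 to 16.9), linc-17 (13.6-fold, 11.5 to 16), linc-109 (5.35-fold, 4.06 to 7.13), linc-8 (4.61-fold, 4.19 to 5.08), linc-24 (3.96-fold, 3.55 to 4.43) and linc-63 (2.24-fold, 2.07 to 2.44). With median-of-ratios scaling or edgeR TMM factors, linc-63 was under 2-fold and 8 genes were lower. The lower genes were linc-76 (91.2-fold, 76.2 to 110), linc-32 (10.1-fold, 7.67 to 13.6), linc-45 (7-fold, 5.71 to 8.65) and linc-12 (2.70-fold, 2.16 to 3.41). Of the genes called, linc-16, linc-17 and linc-109 were measured only through their HT115 level. All of the lower genes were measured only through their level in the first untreated library. Such genes are more likely to be called.

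The gene linc-32 (WBGene00219773, V:410589-410930, minus strand, 2 exons of 131 bases in all) had 0 sense reads in the 5 stranded libraries. After lin-15b RNAi it had 458 antisense reads, or 69.3 CPM, and the other stranded libraries held between 27 reads in F1 (4.95 CPM) and 55 on HT115 (7.44 CPM), or at most 8.62 CPM (P0). Over both strands it had 48.5 CPM after lin-15b RNAi and 59.2 CPM, or 670 reads, in the first untreated library. Its high libraries were lin-15b RNAi and the first untreated library, the reverse of linc-17. The gene linc-45 was high in the first untreated library only, at 78.3 CPM over both strands, with 17.2 after lin-15b RNAi and 7.42 to 11.2 in the other 4.

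Genes under the 2-fold call in P0, F1 and F3 included linc-63, linc-9, linc-31, linc-20 and linc-169. The gene linc-63 (WBGene00219725, I:3870642-3871267, minus strand) had 228 antisense CPM on HT115 and 208 in P0, then 225 in F1 and 171 in F3. The gene linc-9 (WBGene00219678, I:3703542-3704956, plus strand) had 96.6 CPM on HT115 and 114 in P0, then 99.5 in F1 and 127 in F3. The gene linc-31 (WBGene00219666, V:8152035-8154464, minus strand) had 42.9 CPM on HT115 and 59 in P0, then 45.3 in F1 and 46.2 in F3. The gene linc-20 (WBGene00219736, X:16508081-16509294, minus strand) had 23.8 on HT115 and 35.6 in P0, then 30.5 in F1 and 37.8 in F3, so that HT115 was the lowest of the 4. The gene linc-169 (WBGene00219697, II:7371784-7372735, plus strand) was likewise lowest on HT115 among these 4, at 66.7 CPM, with 92.7 in P0, 86.2 in F1 and 99.6 in F3. It shares 121 exon bases on the other strand with mtch-1, which had 1222 sense reads on HT115 and 1435 in P0, then 1679 in F1 and 1827 in F3. Reads antisense to linc-169 in that stretch are sense to mtch-1, and their part in the linc-169 level was not tested.

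Small RNA reads antisense to genes of the secondary small RNA pathway itself stood near HT115 in the P0, F1 and F3 libraries. These reads show the genes as targets of small RNAs in the precipitate. Neither expression nor activity of the pathway genes was measured. Of 20 listed genes (polymerases such as ego-1, Argonautes such as csr-1 and wago-1, and mutator genes such as mut-16), 18 were matched by name. All 18 were measured against HT115 and 0 were called in P0, F1 or F3, where 0.563% (P0), 1.93% (F1) and 0.916% (F3) of all measured genes were called, so that a count of 0 is near the background. The log2 ratios of the 18 lay between -0.27 and 0.53, both of these in F1. After lin-15b RNAi, 17 were measured and 0 were called, where 8.11% of all measured genes were. On HT115 against the first untreated library, 1 was higher (rrf-2) and 2 were lower (znfx-1 and mut-15) of 18 measured, where 28.3% of all measured genes were called.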

How the data were processed

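The authors deposited 1 table per library of raw read counts per annotated transcript. The submitters' processing notes name Bowtie2 as the aligner. Not given in the sources used here are its release, the genome build, the gene models and the program that counted. Columns carry no names. In the 5 tables with 2 columns, the second was taken as antisense because 0.202% to 0.417% of microRNA reads fell there. The 1 column of the first untreated library was read as both strands summed; comparisons with it rest on that reading. Each file has 3 lines that name no gene (0.000106% to 0.000296% of reads) and were left out.

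Counts were summed per gene and divided by the library total (antisense, or both strands over genes listed in all 6 tables). For log2 ratios the pseudocount was 0.5 reads. Measured genes were those at 25 CPM or more in the higher library, and calls were made at 2-fold. Level intervals are exact Poisson, fold intervals exact conditional binomial and share intervals Wilson. Named are lincRNA genes that reached 25 CPM in any library, the 7 genes of the rule that defines the set (linc-14, linc-16, linc-17, linc-24, linc-45, linc-59, linc-76), the 5 with most sense reads and genes that overlap these; linc-4, linc-19, linc-21, linc-41 and linc-68 were added after their values were seen. The members and lists were chosen with earlier results of these data known. Alternatives were median-of-ratios scaling, TMM factors (edgeR 4.0.16), a pseudocount of 5, other minimums, both strands, the other reference library, a 4-fold call and leaving out overlapping genes. Exon lengths and overlaps come from Ensembl release 115 (WBcel235) by gene ID. Python 3.11.15, pandas 2.3.3 and scipy 1.17.1 were used.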

Additional observations from a re-analysis of the deposited data

Results flagged for a closer look

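Sense reads lay outside the antisense comparisons. The gene linc-76 had 810 sense reads per 1000000 reads of both strands after lin-15b RNAi (7645 reads, against 107 reads on HT115), and was listed for a closer look because sense reads, not otherwise compared, were far above their level on HT115. Over both strands linc-76 had 811 CPM after lin-15b RNAi and 1165 CPM in the first untreated library. The strand of its reads in the first untreated library was not analysed here.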

How the results depend on the processing

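No paired analysis was possible because each group has 1 library, and for the same reason leaving out a library gives no value. With a pseudocount of 5 reads all 23 calls stayed past 2-fold, where a gene called in several comparisons counts once in each. Where a count or median changed, the cause was not tested unless named here.

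For P0 against HT115, dropping the minimum gave 17 lincRNA genes higher and 38 lower, since it admits genes with few reads. The median log2 ratio was 0.06 without genes that overlap another gene and -0.20 over both strands. The both-strand totals include sense reads, and antisense reads were 69.58% of reads in P0 and 77.81% on HT115. Against the first untreated library 5 were higher and 5 lower, with a median of 0.08.

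For F1, a minimum of 10 CPM gave 1 higher, and no minimum gave 24 higher and 35 lower. Without overlapping genes 2 were lower, and at a 4-fold call 2 were lower. The median was -0.49 over both strands, where antisense reads were 55.64% of reads in F1 and 77.81% on HT115. Against the first untreated library 2 were higher and 7 lower, with a median of -0.34, and log2 ratios were 0.78 for linc-14, 0.67 for linc-8, 0.95 for linc-17 and -0.01 for linc-24. The gene linc-8 was just under the call with median-of-ratios scaling (-0.98) and TMM (-0.99).

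For F3, TMM gave a median of -0.01. A minimum of 10 CPM gave 2 higher, and no minimum gave 18 higher and 49 lower with a median of -0.49. Without overlapping genes 0 were higher and 2 lower, since linc-59, linc-16 and linc-24 overlap others. The overlap of linc-24 is with the piRNA gene 21ur-9823 on the other strand, which had 0 reads in every library. Over both strands 0 were higher, since linc-59 stays under the minimum there. At a 4-fold call 1 was lower. Against the first untreated library 3 were higher and 6 lower, with a median of -0.18, and log2 ratios were 1.50 for linc-14, 2.03 for linc-16, 0.75 for linc-17 and 0.57 for linc-24.

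For lin-15b RNAi, median-of-ratios scaling gave a median of -0.52. A minimum of 10 CPM gave 8 lower and a median of -0.55, and no minimum gave 20 higher, 30 lower and -0.16. Without overlapping genes 2 were lower and the median was -0.29. At a 4-fold call 1 was lower. Leaving out linc-76, a choice made after seeing the data, gave a median of -0.29.

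For HT115 against the first untreated library, median-of-ratios scaling shifted all log2 ratios by -0.56 and TMM by -0.54. The lower genes then numbered 8 with either, and the medians were -0.61 and -0.59. A minimum of 10 CPM gave 7 lower. No minimum gave 75 higher, 12 lower and a median of 1.49. Without overlapping genes 3 were higher and the median was -0.66.

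Depth limits the rarer genes: linc-14 rests on 39 antisense reads in F1, and 146 of the lincRNA genes never reached the minimum.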
